A study of Mus musculus with 160 samples.

Results

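The T-box factors Tbx1, Tbx2, Tbx3, Tbx4, Tbx5, Tbx15, Tbx18 and Tbx20 were followed through sorted populations of the mouse aorta-gonad-mesonephros (AGM), the embryonic region in which blood stem cells arise from the wall of the dorsal aorta. The 8 genes were chosen by name, as rows of the deposited gene count table that GENCODE pairs with these symbols, out of 46078 genes in the table. All embryos were heterozygous for a Gata3-GFP knock-in allele (Gata3-GFP +/-), GFP+ and GFP- cells alike, and no treatment was given in the labels. Cells were sorted, re-sorted as 20 cells per pool and sequenced by Smart-seq2, a full-length cDNA method, with 20 pools deposited for each of 8 populations. At E10.5 these were GFP+ and GFP- endothelial cells (Gata3+ EC and Gata3- EC, positive for VE-cadherin and negative for CD41 and CD45) and GFP+ and GFP- hematopoietic cells (Gata3+ HC and Gata3- HC, positive for CD41 or CD45). At E11.5 they were GFP+ and GFP- mesenchymal cells (Gata3+ MC and Gata3- MC, sorted as Pdgfrb+) and GFP+ and GFP- cells of the sympathetic nervous system (Gata3+ SNS and Gata3- SNS, sorted as Ngfr+). The cells came from several biological replicates of pooled embryos, which the table does not tie to the 20-cell pools, so the p-values below measure the spread between pools of 20 cells and not between animals.

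T-box factors bind DNA through a shared domain and act on cell identity, often in overlapping combinations. Tbx2 and Tbx3 are mainly repressors, best known for keeping chamber genes off in the heart's conduction tissue, and Tbx18, also a repressor, marks the mesenchyme that wraps the ureter. Tbx1, Tbx5 and Tbx20 are mainly activators with central roles in heart and pharyngeal development, Tbx4 and Tbx5 act in hindlimb and forelimb, and Tbx15 acts in dermis, skeleton and muscle. In the embryo many of these genes are expressed in mesenchyme or neurons near the aorta, and few are regarded as blood or endothelial genes.

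The 8 genes lie on 5 chromosomes of GRCm38, with Tbx2 (chr11:85832551-85841948, plus strand) next to Tbx4 (chr11:85886422-85916097, plus strand) and Tbx3 (chr5:119670669-119684724, plus strand) next to Tbx5 (chr5:119832668-119885219, plus strand). Tbx1 lies at chr16:18580979-18590671 on the minus strand, Tbx15 at chr3:99240381-99354259 on the plus strand, Tbx18 at chr9:87702800-87731260 and Tbx20 at chr9:24718138-24774303, both on the minus strand. All 8 are protein coding. The 250 bases before the annotated start are shown for the 3 members whose levels separated the populations most clearly and for which RefSeq's GRCm38.p6 table held the window: Tbx1, which was lower in GFP+ than in GFP- cells of 2 cell types, Tbx18, which marked the mesenchymal pools, and Tbx20, which marked GFP+ SNS pools. The windows are chr16:18590672-18590921, chr9:87731261-87731510 and chr9:24774304-24774553, all on the minus strand and written 5′ to 3′ on the strand of the gene. Capitals mark motif matches.
Tbx1: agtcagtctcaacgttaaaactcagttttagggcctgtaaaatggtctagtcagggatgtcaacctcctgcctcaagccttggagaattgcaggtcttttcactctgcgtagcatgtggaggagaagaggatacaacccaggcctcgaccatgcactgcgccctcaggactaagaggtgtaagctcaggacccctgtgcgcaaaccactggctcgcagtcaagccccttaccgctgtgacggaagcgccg
Tbx18: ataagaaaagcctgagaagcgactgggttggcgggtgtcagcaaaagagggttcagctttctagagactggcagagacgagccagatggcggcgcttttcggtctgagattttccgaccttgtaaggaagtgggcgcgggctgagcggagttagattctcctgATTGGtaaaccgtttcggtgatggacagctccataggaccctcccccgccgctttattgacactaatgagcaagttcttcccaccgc
Tbx20: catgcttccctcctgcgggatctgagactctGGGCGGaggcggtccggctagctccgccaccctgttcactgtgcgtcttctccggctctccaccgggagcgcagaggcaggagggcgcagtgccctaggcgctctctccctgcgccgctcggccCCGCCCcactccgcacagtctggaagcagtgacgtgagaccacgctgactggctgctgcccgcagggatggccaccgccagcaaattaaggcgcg
The search covered, on both strands, the GATA motif, spelled AGATAA or with its last base changed AGATAG, or with its first base changed TGATAA or with both changed TGATAG, the T-box half-site GGTGTGA, the TATA box TATAAA, the CCAAT box CCAAT and the GC box GGGCGG. Tbx18 held CCAAT on the opposite strand, 87 to 83 bases before the start, and Tbx20 held GGGCGG 219 to 214 bases before the start and, on the opposite strand, 95 to 90 bases before it. None of the letters searched was found in the Tbx1 window, and no GATA motif or T-box half-site was found in any of the 3. Of 32851 mouse promoter windows of this length, 26.5% held 1 of the GATA motifs, 3.33% the half-site, 12.4% TATAAA, 33.8% CCAAT and 32.7% GGGCGG. The GC content was 54.4% for Tbx1, 54% for Tbx18 and 68.8% for Tbx20, against a median of 52.4% over all windows.

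Of the 160 pools, all but 7 passed the limits on read number and on mitochondrial and spike-in reads, with 1400824 to 16004756 gene counts each (median 3801233). Gata3 itself, given as CPM (gene counts scaled to the TMM library size), followed the GFP sort at E10.5. Its median was 77.6 CPM in Gata3+ EC and 10.4 CPM in Gata3- EC, and 43.96 CPM in Gata3+ HC and 6.90 CPM in Gata3- HC. At E11.5 it did so once 12 libraries described next were left out. The medians were then 36.5 CPM in Gata3+ MC and 9.10 CPM in Gata3- MC, and 190.4 CPM in Gata3+ SNS and 40.1 CPM in Gata3- SNS. In the E11.5 pools, marker genes went against the label in 12 of 74 passing libraries, 3 in each of the 4 populations. Summed over Pdgfrb, Pdgfra, Col1a1, Col1a2, Col3a1, Lum, Dcn and Twist1 (CPM without further scaling), mesenchymal markers reached 3594 to 5444 in the other Gata3+ MC pools and 2462 to 4311 in the other Gata3- MC pools, but 521 to 729 in the 3 libraries labelled Gata3+ MC and 95.6 to 213 in the 3 labelled Gata3- MC. In the libraries labelled SNS the sums were 116.3 to 355 for Gata3+ and 406 to 977 for Gata3- pools, but 2562 to 2764 and 3842 to 5441 in the 3 and 3 that went against the label. Among these 12 libraries Gata3 went against the GFP label too. It was 16.38 to 80.96 CPM in those labelled Gata3+ MC but 123.997 to 398.2 CPM in those labelled Gata3- MC. In those labelled SNS it was 10.16 to 24.24 CPM for Gata3+ and 45.82 to 51.49 CPM for Gata3-. Tests that include the 12 libraries thus mix high and low Gata3 under the labels Gata3- MC and Gata3+ SNS. The 12 libraries are given no other group here. Tests at E11.5 are given without them, and also with them where so stated. Levels per kb, ratios and correlations within populations at E11.5 leave them out. The gate genes Pdgfrb and Ngfr are themselves among the mesenchymal and sympathetic markers.

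**Figure D1:**
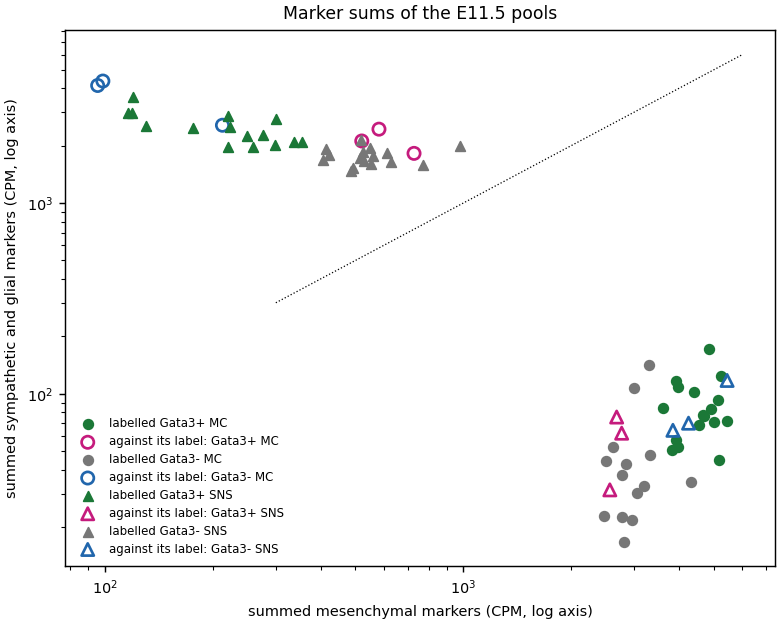
Summed mesenchymal markers (x axis, CPM, log axis) against summed sympathetic and glial markers (y axis, CPM, log axis) in each of the 74 passing E11.5 pools. Circles are libraries labelled MC and triangles libraries labelled SNS, green for GFP+ and gray for GFP-. Open symbols, pink where labelled Gata3+ and blue where labelled Gata3-, are the 12 libraries whose sums fall on the other side of the dotted line of equality from the rest of their label.

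The T-box genes split the AGM populations between them. EC and HC were taken only at E10.5, and MC and SNS only at E11.5. Between populations of different stages, stage and cell type therefore cannot be told apart. To compare genes with each other, mean CPM was divided by exon length and is given as CPM per kb, without the 12 libraries. Tbx1 made up most of the summed level of the 8 genes in the endothelial populations, with 61.5% of 4.68 CPM per kb in Gata3+ EC and 89.5% of 10.95 CPM per kb in Gata3- EC. Tbx18 made up 70.9% of 13.8 CPM per kb in Gata3+ MC, whereas in Gata3- MC Tbx1 held 67.3% and Tbx18 25.6% of 44.2 CPM per kb. In the SNS pools Tbx2, Tbx3 and Tbx20 together accounted for nearly the whole sum, with 47.4%, 34.3% and 17.5% of 55.03 CPM per kb in Gata3+ SNS and 60.5%, 30.4% and 7.15% of 21.3 CPM per kb in Gata3- SNS. Gata3+ HC held Tbx3 and Tbx2 at 39.7% and 36.3% of 9.83 CPM per kb, and Gata3- HC had the lowest sum, 1.51 CPM per kb. In bulk pools such as these, fewer cells that express a gene and less RNA per cell cannot be told apart.

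**Figure D2:**
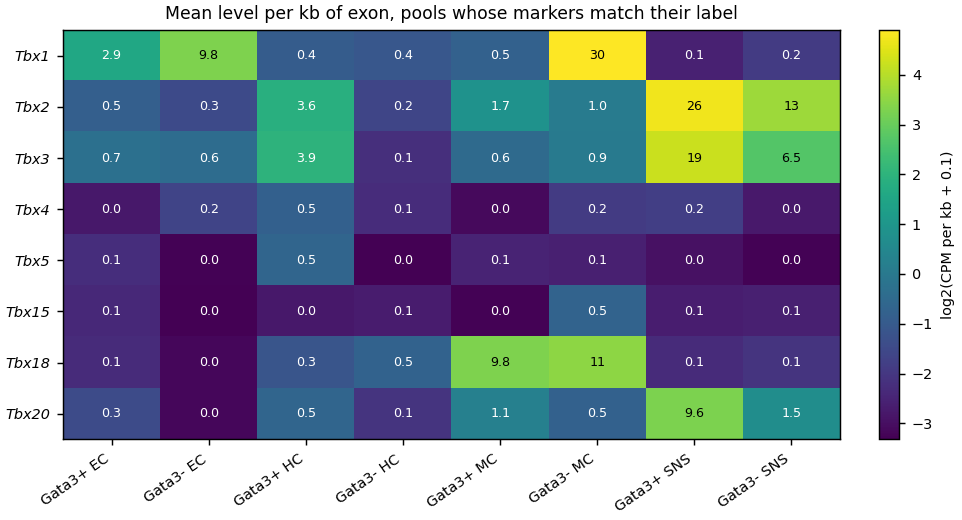
Mean level of each T-box gene per population in CPM per kb of exon, printed in each cell and shaded on a log2 scale (pseudocount 0.1), without the 12 libraries that went against their label. The brightest cells are Tbx1 in Gata3- MC (29.7 CPM per kb) and Tbx2 and Tbx3 in Gata3+ SNS (26.1 and 18.9 CPM per kb).

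The number of these genes detected in a pool of 20 cells differed between populations. So did depth, with a median over passing pools from 2801409 gene counts in Gata3- EC to 4573354 in Gata3+ SNS. Its part in the numbers detected was not tested. Counting a gene as detected at 10 counts or more, the median pool held 1 of the 8 in Gata3+ EC, 2 in Gata3- EC, 3 in Gata3+ HC, 0 in Gata3- HC, 4 in both MC populations and 3 in both SNS populations. Tbx2, Tbx3 and Tbx20 were detected together in 15 of 15 Gata3+ SNS pools, 12 of 16 Gata3- SNS pools, 7 of 17 Gata3+ MC pools, 4 of 14 Gata3- MC pools, 7 of 20 Gata3+ HC pools, 1 of 20 Gata3- HC pools and 0 EC pools.

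**Figure D3:**
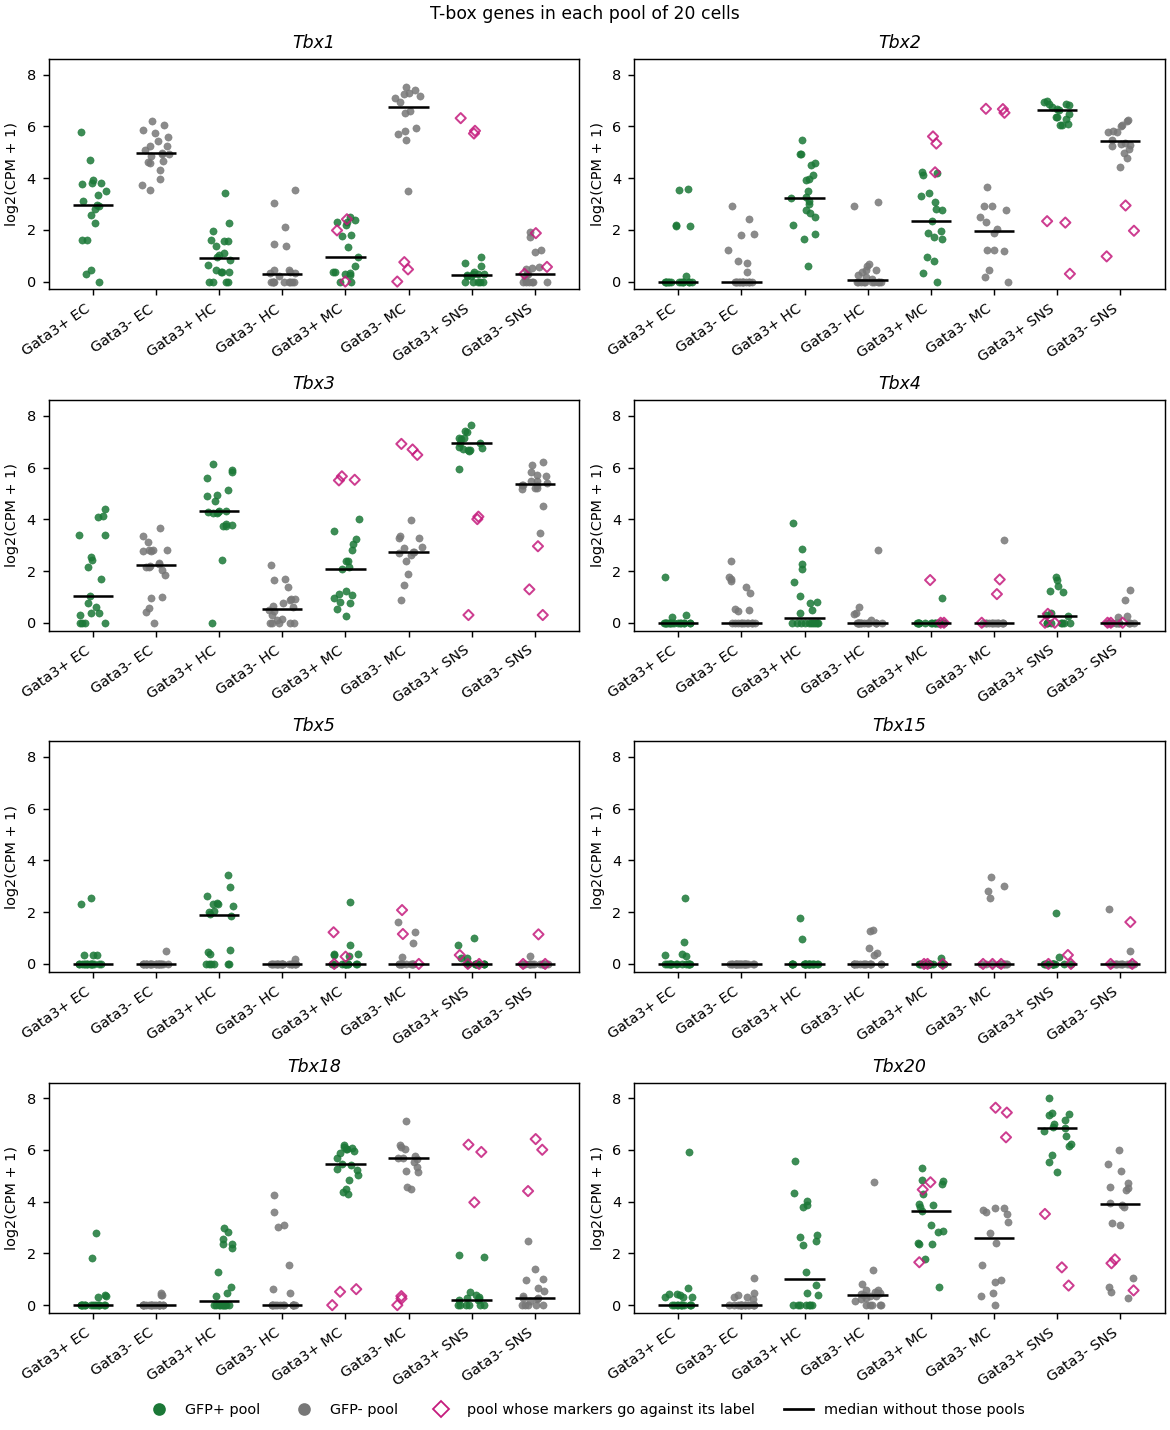
Level of each T-box gene, log2(CPM + 1), in every passing pool of 20 cells by population, with green for GFP+ and gray for GFP- pools and a black line at the median. Open diamonds are the 12 E11.5 libraries whose markers went against their label and which do not enter the median. Tbx1 is high in Gata3- EC and Gata3- MC, Tbx18 in MC, Tbx2 and Tbx3 in SNS, and Tbx20 in Gata3+ SNS pools.

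Tbx1, linked to DiGeorge syndrome through its role in the pharyngeal arches and outflow tract, was lower in GFP+ than in GFP- cells of both types in which it was abundant. In Gata3+ EC it ranged from 0 to 54.2 CPM with a median of 6.82 (10.1 ± 12.4, mean and SD, n = 19), and in Gata3- EC from 10.49 to 73.6 CPM with a median of 30.1 (34.5 ± 17.4, n = 20). The ranges overlapped, but 14 of 19 GFP+ pools and 20 of 20 GFP- pools held 10 or more counts. In edgeR's quasi-likelihood test Tbx1 fell by 1.79 on the log2 scale (SE 0.40, adjusted p = 2.77e-04). It was the only one of 3 members tested that was called, at adjusted p under 0.01, in a comparison in which 36% of all tested genes were called. Without the Gata3+ EC pool in which mesenchymal markers reached 1472 CPM, the fall was 1.74 (adjusted p = 2.32e-04, again 1 of 3 members, background 35.5%). Markers of other cell types differed between these pools as well, with 6 of 6 mesenchymal markers tested higher in Gata3+ EC and a sympathetic sum of 276 to 737 CPM against 16.2 to 145.8 CPM, and their part in the result was not tested. In 1 fit of all 8 populations the estimate for Tbx1 was −1.75 and no longer passed (adjusted p = 0.0167).

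The same gene was the member that changed in the mesenchymal pools, which were sorted as Pdgfrb+ cells. Without the 12 libraries, Tbx1 ranged from 0 to 4.68 CPM in Gata3+ MC (median 0.946, 1.73 ± 1.73, n = 17) and from 10.2 to 183 CPM in Gata3- MC (median 108.7, 104.6 ± 53.9, n = 14). No Gata3+ MC pool reached the lowest Gata3- MC pool. In edgeR the difference was −5.85 (SE 0.43, adjusted p = 5.75e-12), and 1 of 5 members tested was called against a background of 10.4% of genes. Markers of other cell types differed too, with a median sum of 62.9 CPM in Gata3+ MC and 23.2 CPM in Gata3- MC for sympathetic, 18.9 and 64.7 CPM for coelomic, and 4674 and 2895 CPM for mesenchymal genes, and their part in the result was not tested. With the 12 libraries the Tbx1 difference was −5.53 (SE 0.63, adjusted p = 1.99e-07, again 1 of 5 members, background 4.36%). The 3 libraries labelled Gata3- MC that went against the label held 0 to 0.68 CPM of Tbx1, and the 3 labelled Gata3+ SNS that did so held 51.8 to 78.7 CPM. Ordered by mean CPM, Gata3- MC stood above Gata3- EC, and Gata3- EC above Gata3+ EC, each by more than the larger SD, while the other 6 populations did not differ from their neighbor beyond it. The step from Gata3- MC to Gata3- EC crosses from E11.5 to E10.5, so stage and cell type cannot be told apart in it.

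Tbx1 was not called between GFP+ and GFP- HCs, whose medians were 0.856 and 0.209 CPM (log2 fold change 0.23, SE 0.72, edgeR adjusted p = 0.83). It was lower in HCs than in ECs, by 2.63 on the log2 scale between the GFP+ populations (edgeR adjusted p = 4.45e-05) and by 4.68 between the GFP- populations (adjusted p = 1.52e-10), where the highest Gata3- HC pool (10.47 CPM) lay just below the lowest Gata3- EC pool (10.49 CPM). Without the 12 libraries, Tbx1 was near 0 in both SNS populations, at most 0.939 CPM in 15 Gata3+ SNS pools and 2.75 CPM in 16 Gata3- SNS pools. A rise of 3.9 in Gata3+ over Gata3- SNS (edgeR adjusted p = 0.00996) was called only with the 12 libraries included, turned to −1.57 in DESeq2 on the same pools (adjusted p = 0.18), and could not be tested without them because the gene then missed the count filter.

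Tbx18 was a mesenchymal gene in both GFP fractions. It ranged from 18.5 to 72.99 CPM in Gata3+ MC (median 42.6, 46.1 ± 18.5, n = 17) and from 21.4 to 138.1 CPM in Gata3- MC (median 49.96, 53.3 ± 28.9, n = 14), without the 12 libraries. Every one of these pools lay above every EC, HC and remaining SNS pool, of which the highest held 18.1 CPM. The GFP fractions overlapped and the difference was not called (−0.23, SE 0.23, edgeR adjusted p = 0.55, and −0.19, SE 0.53, adjusted p = 0.88 with the 12 libraries). The 3 libraries labelled Gata3+ SNS and the 3 labelled Gata3- SNS that went against the label held 14.7 to 72.7 and 20.3 to 84.6 CPM, and the 6 labelled MC that did so held at most 0.53 CPM.

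Between cell types of 1 stage, Tbx18 was lower in Gata3+ SNS than in Gata3+ MC by 6.46 on the log2 scale (SE 0.49, edgeR adjusted p = 3.96e-18) and lower in Gata3- SNS than in Gata3- MC by 6.43 (SE 0.48, adjusted p = 4.89e-18), without the 12 libraries. With them the differences were −2.20 (adjusted p = 0.0348) and −2.25 (adjusted p = 0.0664), and neither was called. At E10.5, 4 of 20 Gata3- HC pools held 10 or more counts of Tbx18, up to 18.1 CPM, and 13 held none. Those 4 pools had mesenchymal sums of 50.8 to 129.3 CPM, beside medians of 32.4 CPM in Gata3- HC and 15.5 CPM in Gata3- EC. The Gata3- HC pool with the highest sum, 150.9 CPM, held no Tbx18, and the part of these markers was not tested. Summed over pools, Gata3- HC had 192 counts, 93 of them in 1 pool, against 3 in Gata3- EC. The ratio was 41.8 after scaling (95% exact interval 14.1 to 204, counting error of reads only, without the spread between pools). In edgeR the difference was called (4.79, SE 1.04, adjusted p = 6.43e-05). Exons of Tbx18 overlap those of D030062O11Rik on the opposite strand over 970 bases (20.56%), a gene that reached at most 3.51 CPM in any pool.

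Tbx15, the closest relative of Tbx18, was rare. In Gata3- MC it held 10 or more counts in 4 of 14 pools, up to 9.15 CPM, and none in the other 10. The Gata3+ MC pools held 1 count between them, and the ratio of the summed counts was 227 after scaling (95% exact interval 40.1 to 9020). The gene missed the filter in that comparison and was not tested there. It had 0 counts in all 20 Gata3- EC pools.

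Tbx2, Tbx3 and Tbx20 were the T-box genes of the sympathetic pools, and all 3 were higher in GFP+ than in GFP- SNS cells. Without the 12 libraries, Tbx2 ranged from 64.8 to 124.2 CPM in Gata3+ SNS (median 98.3, 94.6 ± 20.7, n = 15) and from 20.3 to 74.9 CPM in Gata3- SNS (median 41.8, 46.7 ± 16.6, n = 16). Tbx3 ranged from 59.9 to 198 CPM (median 122.3, 125.1 ± 34.4) and from 10.04 to 73.3 CPM (median 40.7, 42.8 ± 15.4). Tbx20, which in the nervous system acts in migrating motor neurons, ranged from 34.1 to 256 CPM (median 113.7, 115.5 ± 58.8) and from 0.209 to 63.7 CPM (median 14, 18.3 ± 17.5). The Tbx20 mean in Gata3- SNS did not exceed that in Gata3+ MC (13.1 ± 10.7 CPM) by more than the larger SD, and the ranges overlapped. The ranges of each gene overlapped only at the edge, and the GFP+ mean exceeded the GFP- mean by more than the larger SD for all 3.

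In edgeR, Tbx2 rose by 1.01 (SE 0.15, adjusted p = 7.32e-06), Tbx3 by 1.54 (SE 0.18, adjusted p = 8.12e-08) and Tbx20 by 2.67 (SE 0.46, adjusted p = 5.60e-05) on the log2 scale. These were 3 of 3 members tested, in a comparison in which 10.4% of genes were called. The sum of mesenchymal markers also differed between these pools, at 116.3 to 355 CPM in Gata3+ SNS and 406 to 977 CPM in Gata3- SNS, with 6 of 8 markers lower and none higher, and 7 of 8 sympathetic markers were higher and 1 lower. Coelomic epithelium and gonad markers had a median sum of 1.56 CPM (0.471 to 12.9) in Gata3+ SNS and 109.03 CPM (3.13 to 322) in Gata3- SNS, and nephric markers 102.6 and 38.6 CPM. Their part in the T-box differences was not tested. With the 12 libraries the estimates for Tbx2, Tbx3 and Tbx20 were 0.99, 1.54 and 2.64, of which Tbx20 passed (adjusted p = 0.00212) and Tbx3 (adjusted p = 0.0123) and Tbx2 (adjusted p = 0.13) did not, so that 2 of 5 members, Tbx1 and Tbx20, were called against a background of 3.87%. The scanpy test used by the study, on scran-normalized counts, called 0 of 5 members with the 12 libraries included, 2 of them at an unadjusted p under 0.05.

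The 3 genes did not rise in proportion. Taken pool by pool, the log2 ratio of Tbx20 to Tbx2 averaged 0.13 (SD 0.76) in Gata3+ SNS and −2.03 (SD 1.78) in Gata3- SNS, a difference of 2.16 (two-sided permutation test, p = 8e-05, adjusted over 3 ratios p = 0.00024). The ratio of Tbx20 to Tbx3 differed by 1.64 (adjusted permutation p = 0.00042) and that of Tbx3 to Tbx2 by 0.53 (adjusted permutation p = 0.0162). Relative to Tbx2, both Tbx20 and Tbx3 were thus higher in the GFP+ pools. Only the differences between groups are read here, since the same exon lengths enter both groups. The averages of the ratios are not corrected for length and do not give the levels of 2 genes relative to each other. The ratios were taken of CPM + 1, which weighs on pools low in Tbx20, down to 0.209 CPM in Gata3- SNS.

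**Figure D4:**
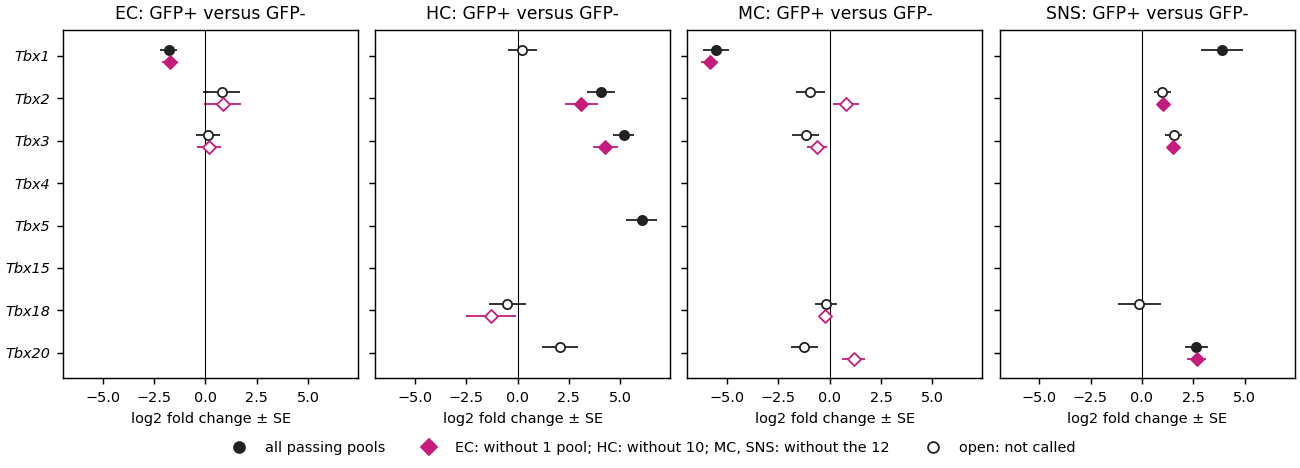
Log2 fold change of GFP+ over GFP- pools (x axis, bars are the edgeR SE) for each T-box gene tested in ECs, HCs, MCs and SNS. Black circles use all passing pools and pink diamonds leave out the pools named in the legend, and filled symbols were called at adjusted p under 0.01. Tbx1 lies left of 0 in EC and MC and Tbx2, Tbx3 and Tbx20 lie right of 0 in SNS, while Tbx2 and Tbx20 in MC change side when the 12 libraries are left out.

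Against the mesenchyme of the same stage, the sympathetic pools separated completely for Tbx2. Without the 12 libraries, Tbx2 was higher in Gata3+ SNS than in Gata3+ MC (0 to 17.8 CPM) by 3.96 (SE 0.39, edgeR adjusted p = 1.31e-13) and in Gata3- SNS than in Gata3- MC (0 to 11.6 CPM) by 3.80 (SE 0.44, adjusted p = 8.74e-11), with no overlap in either. Tbx3 was higher by 5.0 (SE 0.34, adjusted p = 4.80e-20) and 2.79 (SE 0.34, adjusted p = 4.21e-10), and overlapped only between the GFP- populations. Tbx20 was higher by 3.16 (SE 0.49, adjusted p = 1.29e-07) in the GFP+ populations and by 1.70 in the GFP- populations, where it did not pass (SE 0.54, adjusted p = 0.0106).

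Between Gata3+ SNS and Gata3+ MC, 5 of 6 members tested were called, 3 higher and Tbx1 and Tbx18 lower, in a comparison that called 37% of genes, and between Gata3- SNS and Gata3- MC 4 of 6, 2 in each direction, with 22.2% of genes called. With the 12 libraries the GFP+ comparison called 4 of 6, all higher (background 24.5%), and Tbx1 changed from −2.78 to 2.47. The GFP- comparison then called only Tbx1, at −6.94 (edgeR adjusted p = 1.83e-07, 1 of 6, background 5.75%). In the MC populations themselves Tbx2, Tbx3 and Tbx20 were low, with medians of 2.93 to 11.3 CPM without the 12 libraries, and no GFP difference was called. Tbx2 and Tbx20 there changed from −0.95 and −1.24 with the 12 libraries to 0.80 and 1.16 without them (edgeR adjusted p = 0.43 and 0.15), and the 3 libraries labelled Gata3- MC that went against the label held 91.01 to 101.5 CPM of Tbx2, 88.8 to 120 CPM of Tbx3 and 88.8 to 197 CPM of Tbx20.

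In the hematopoietic pools Tbx2, Tbx3 and Tbx5 were higher in GFP+ cells, and so were markers of other cell types. Tbx2 ranged from 0.531 to 43.97 CPM in Gata3+ HC (median 8.49, 12.9 ± 11.4, n = 20) and from 0 to 7.54 CPM in Gata3- HC (median 0.0378, 0.829 ± 2.14, n = 20). Tbx3 ranged from 0 to 70.3 CPM (median 18.8, 25.8 ± 18.7) and from 0 to 3.69 CPM (median 0.454, 0.764 ± 0.970). Tbx5, the Holt-Oram syndrome gene of heart and forelimb, ranged from 0 to 9.92 CPM in Gata3+ HC (median 2.70) with 10 or more counts in 7 of 20 pools, and the 20 Gata3- HC pools held 1 count between them.

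In edgeR, Tbx2 was higher in Gata3+ HC by 4.05 (SE 0.68, adjusted p = 6.46e-06), Tbx3 by 5.16 (SE 0.52, adjusted p = 4.33e-10) and Tbx5 by a fitted 6.04 (adjusted p = 3.04e-08), for which the ratio of 164 to 1 counts was 205 after scaling (95% exact interval 36.2 to 8133). Tbx2, Tbx3, Tbx5 and Tbx20 reached 10 or more counts in 16, 19, 7 and 8 Gata3+ HC pools and in 2, 2, 0 and 1 Gata3- HC pools. Each thus passed the count filter of 5 pools only through the population in which it was high. Their values in this comparison are given as a description. With Tbx2, Tbx3 and Tbx5 included, 3 of 6 members tested were called, all higher, where 26.6% of genes were called. Tbx20, with medians of 1.05 and 0.296 CPM, was not called in edgeR (2.07, SE 0.86, adjusted p = 0.0541) and was called in DESeq2 (4.41, adjusted p = 1.03e-07), and Tbx1 and Tbx18 were not called.

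Hematopoietic markers were high in both HC populations, at 2282 to 5290 CPM in Gata3+ HC and 4486 to 6234 CPM in Gata3- HC. Markers of other cell types were higher in the GFP+ pools. The mesenchymal sum ranged from 14.1 to 868 CPM (median 311) in Gata3+ HC and from 3.28 to 150.9 CPM (median 32.4) in Gata3- HC, with 7 of 8 markers called higher. The sympathetic sum ranged from 1.32 to 1787 CPM (median 68.3) against 0.767 to 10.4 CPM (median 5.68), with 8 of 8 called higher, although Phox2a had a median of 0 in both. The glial sum ranged from 4.10 to 168 CPM (median 15.1) against 0 to 10.4 CPM (median 1.95), with 3 of 4 tested called higher and Foxd3 at a median of 0 in both. Nephric and coelomic sums had medians of 19.7 and 39.03 CPM in Gata3+ HC and 0.895 and 2.93 CPM in Gata3- HC.

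Correlations were taken to pass at adjusted p under 0.05. Of 15 pairs of Tbx2, Tbx3 or Tbx5 with 1 of the 5 marker sums, 4 passed by Pearson's r and 3 by Spearman's rho. All were of Tbx2 or Tbx3 with the mesenchymal or glial sum. Over the 20 Gata3+ HC pools, log2(CPM + 1) of Tbx3 rose with that of the mesenchymal sum (Pearson r = 0.86, adjusted permutation p = 0.0006, Spearman rho = 0.68, adjusted p = 0.0065), and r was 0.58 without the 2 pools farthest from the median of the sum. Tbx2 rose with the mesenchymal sum (r = 0.58, adjusted permutation p = 0.0214, rho = 0.71, adjusted p = 0.0051, r = 0.63 without the 2 pools) and with the glial sum (r = 0.71, adjusted permutation p = 0.0033, rho = 0.71, adjusted p = 0.0051, r = 0.57 without the 2 pools). For Tbx5 no relation passed (r = 0.30 with the mesenchymal sum, adjusted permutation p = 0.43, rho = 0.17). Leaving out the 10 Gata3+ HC pools with the most mesenchymal markers, a choice made after seeing the data, Tbx2 was still higher by 3.11 (SE 0.82, edgeR adjusted p = 0.00495) and Tbx3 by 4.26 (SE 0.60, adjusted p = 4.13e-06), 2 of 3 members tested against a background of 14.8%, and Tbx5 missed the filter. These values too are a description, since Tbx2 and Tbx3 passed the filter only through Gata3+ HC. The 10 pools kept still held up to 307 CPM of mesenchymal markers, above the highest Gata3- HC pool, and the part of these markers in the T-box differences was otherwise not tested.

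**Figure D5:**
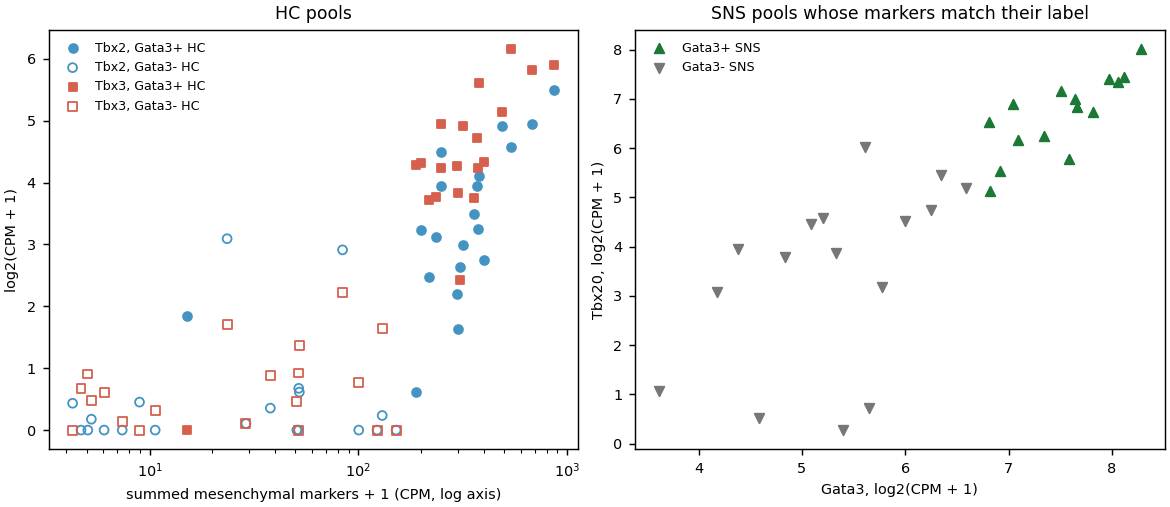
Left, Tbx2 (blue circles) and Tbx3 (red squares), as log2(CPM + 1), against summed mesenchymal markers plus 1 (CPM, log axis) in Gata3+ HC (filled) and Gata3- HC (open) pools. Right, Tbx20 against Gata3, both as log2(CPM + 1), in Gata3+ SNS (green) and Gata3- SNS (gray) pools whose markers match their label. Tbx3 rises with the mesenchymal sum among Gata3+ HC pools (r = 0.86) and Tbx20 with Gata3 among Gata3+ SNS pools (r = 0.79). Sympathetic and glial sums also varied among the SNS pools and were not taken into account.

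Against ECs of the same GFP fraction, Gata3+ HC held more Tbx2 (2.92, SE 0.78, edgeR adjusted p = 0.00102), Tbx3 (2.43, SE 0.54, adjusted p = 9.70e-05), Tbx4 (3.17, SE 0.92, adjusted p = 0.0024) and Tbx5 (2.31, SE 0.67, adjusted p = 0.0027). With Tbx1 lower, 5 of 7 members tested were called, where 43.3% of genes were. Without the 10 Gata3+ HC pools richest in mesenchymal markers, only Tbx1 was called (−3.01, adjusted p = 5.44e-04, 1 of 4, background 38.7%), and Tbx2 (2.05, adjusted p = 0.0644) and Tbx3 (1.61, adjusted p = 0.036) were not. Tbx4 missed the count filter without its highest Gata3+ HC pool (45 counts), which lowered the mean from 1.61 to 0.972 CPM. In DESeq2, Tbx4 (adjusted p = 0.0197) and Tbx5 (adjusted p = 0.0858) were not called. Here too, Tbx5 passed the count filter only through Gata3+ HC.

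Among GFP- cells the pattern was another. Tbx3 was lower in Gata3- HC than in Gata3- EC, which ranged from 0 to 11.8 CPM (median 3.75), by 2.55 on the log2 scale (SE 0.59, edgeR adjusted p = 1.56e-04), and Tbx20 was higher by 3.40 (SE 1.06, adjusted p = 0.00541), with 1 of 20 Gata3- HC pools holding 10 or more counts. That pool, at 26.1 CPM (92 counts), carried the call of Tbx20: without it the Gata3- HC mean was 0.328 CPM in place of 1.62 CPM, and the difference was 1.12 (SE 1.0, adjusted p = 0.38). Without the pool highest in Tbx18, at 18.1 CPM, that gene was still called (4.15, SE 1.01, edgeR adjusted p = 3.71e-04). With Tbx1 lower and Tbx18 higher, 4 of 7 members were called, where 38.3% of genes were. In the fit without the 10 Gata3+ HC pools these were 3 of 4 members (background 39.4%), and Tbx20 missed the filter.

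Tbx4, the hindlimb and lung gene, was near 0 throughout. Its highest pool, at 13.7 CPM, was a Gata3+ HC pool, and at most 3 pools of any population held 10 or more counts. Tbx20 was likewise near 0 in the ECs except for 1 of 19 Gata3+ EC pools with 59.5 CPM (254 counts), the same pool that held 1472 CPM of mesenchymal markers. Tbx2 in ECs was above 0 in 6 of 19 Gata3+ and 8 of 20 Gata3- pools and its difference was not called (0.79, SE 0.89, edgeR adjusted p = 0.49).

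Whether the GFP+ minus GFP- difference itself differed between cell types was tested as an interaction, the signed log2 difference in 1 cell type minus that in the other. For HC minus EC it was 4.98 for Tbx3 (SE 0.80, edgeR adjusted p = 4.84e-07) and 4.32 for Tbx4 (SE 1.24, adjusted p = 0.00415), 2 of 7 members, where 22.7% of genes were called. Tbx4 again missed the filter without its highest Gata3+ HC pool. Without the 10 Gata3+ HC pools Tbx3 remained called at 4.14 (adjusted p = 1.89e-04, 1 of 4, background 19.5%). For SNS minus MC, without the 12 libraries, it was 2.21 for Tbx3 (SE 0.45, adjusted p = 2.00e-04). For Tbx1 it was 4.60 (SE 0.99, adjusted p = 3.86e-04), with the GFP difference of −5.85 in MC and a level near 0 in both SNS populations. A value of 5.54 for Tbx15 (adjusted p = 0.00285) is given as a description, since 6 pools held 10 or more counts, 4 of them Gata3- MC and 1 in each SNS population, and the gene missed the filter of 5 pools in both GFP comparisons. Tbx20 was not called (1.46, SE 0.71, adjusted p = 0.16). Tbx15 included, 3 of 6 members were called, where again 10.4% of genes were. With the 12 libraries 4 of 6 were called, Tbx20 among them, against a background of 9.66%.

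Within populations, pools of 20 cells were compared for members that varied together, on the pools whose markers matched the label, over 24 pairs. No Pearson correlation passed at adjusted p under 0.05. Spearman's rho passed for Tbx2 with Tbx3 in Gata3+ HC (rho = 0.73, adjusted permutation p = 0.0101, r = 0.64, adjusted p = 0.054, n = 20, r = 0.71 without the 2 pools farthest from the median) and for Tbx3 with Tbx20 in Gata3- SNS (rho = 0.72, adjusted permutation p = 0.0263, r = 0.64, adjusted p = 0.0593, n = 16, r = 0.58 without 2 pools). In Gata3+ SNS, Tbx3 and Tbx20 gave r = 0.55 (adjusted permutation p = 0.21, rho = 0.43, n = 15). Tbx2 and Tbx18 in Gata3- MC gave r = −0.59 (adjusted permutation p = 0.21, rho = −0.56, n = 14).

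Set against Gata3 transcript in the same pools, over 20 pairs of a gene and a population, Tbx20 rose with Gata3 in Gata3+ SNS (r = 0.79, adjusted permutation p = 0.0096, rho = 0.79, adjusted p = 0.0178, n = 15, r = 0.79 without the 2 pools farthest from the median). In Gata3- SNS the relation was r = 0.49 (adjusted permutation p = 0.16, rho = 0.54, n = 16), and whether the populations differ in it was not tested. Among the Gata3+ SNS pools the sympathetic sum ranged from 894 to 3080 CPM and the glial sum from 515 to 1189 CPM. The pool highest in Gata3 (309 CPM) was also the highest in the sympathetic sum, and the part of these sums in the relation was not tested. Tbx18 fell with Gata3 in Gata3- MC by Pearson's r only (r = −0.70, adjusted permutation p = 0.0463, rho = −0.44, adjusted p = 0.26, n = 14). Tbx3 in Gata3+ HC passed likewise by r only (r = 0.59, adjusted permutation p = 0.0463, rho = 0.49, adjusted p = 0.22, n = 20). No relation of Tbx1 with Gata3 passed among Gata3+ EC (r = −0.17, adjusted permutation p = 0.57), Gata3- EC (r = −0.13, adjusted p = 0.57) or Gata3- MC pools (r = −0.31, adjusted p = 0.38).

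Over all passing pools and 16435 genes with 10 or more counts in at least 20 pools, genes among the 3 most like each member are given by Pearson's r of log2(CPM + 1), as a description, since pools of 1 population share their sort and stage. For Tbx1 they were Ebf3 (0.71), Plagl1 (0.68) and Foxf2 (0.65). For Tbx2 they included Tlx2 (0.88), for Tbx3 they included Tbx2 and Tlx2 (each 0.84), and for Tbx20 they were Rbm24 (0.86), Dll3 (0.82) and Nefm (0.81). For Tbx18 they were Prdm6 (0.91), Ntrk2 (0.89) and Kcns3 (0.88). Tlx2 marks neural crest derivatives, and Nefm encodes a neurofilament. Tbx4, Tbx5 and Tbx15 were too rare for such a comparison.

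Other genes of the pathway were taken from lists of 9 further T-box genes, 12 genes for protein partners, 15 genes known to be regulated by T-box factors, 14 genes of ureteric mesenchyme and 13 of limb and body wall mesenchyme. None of the further T-box genes was called by edgeR in any of the 4 GFP comparisons, in which 1 or 2 of the 9 could be tested. Beside the list counts that follow, the share of all tested genes called in either direction was 36% in EC, 26.6% in HC and 14.8% without the 10 Gata3+ HC pools, and, without the 12 libraries, 10.4% in MC and 10.4% in SNS (4.36% and 3.87% with them). Of the partners, 3 of 8 tested rose in Gata3+ EC, Isl1 (5.06), Gata6 (3.75) and Sall4 (1.17), and Hdac1 fell by 0.25 on the log2 scale, with a list median of 0.86 beside 0.10 for all genes. In Gata3+ HC 8 of 11 rose, led by Hand2 (6.72), Isl1 (6.18) and Gata6 (5.47), with a list median of 2.34 beside 0.05, and without the 10 pools rich in mesenchymal markers 2 of 6 rose, Isl1 (5.73) and Gata6 (4.45). In Gata3+ MC, without the 12 libraries, Isl1 (3.17), Gata6 (2.36) and Hand2 (1.78) rose and Sall4 fell by 3.36 on the log2 scale, of 10 tested, and with them only Gata6 (2.41) rose, of 11. In Gata3+ SNS, without the 12 libraries, 4 of 11 rose, with Isl1 (3.03), Hand2 (2.16) and Sall4 (1.12) ahead, and 3 fell, Gata4 (−7.68), Gata6 (−5.24) and Sall1 (−3.93), and with them Isl1 (2.56) rose and Gata4 (−6.44) and Sall1 (−2.76) fell. Isl1, a LIM homeodomain factor that acts with T-box proteins in the heart, was called higher in all 4 cell types when the 12 libraries were left out, and not in MC with them. Hand2 is itself among the sympathetic markers summed above, and Gata4 among the coelomic epithelium and gonad markers. In the lists that follow, Cdh1 is also a nephric marker and Twist1 a mesenchymal marker. The part of other cell types in all these list counts was not tested.

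Of the genes known to be regulated by T-box factors in other tissues, 2 of 9 tested rose in Gata3+ EC, in which 36% of all genes were called, among them Gja5 (5.78), which encodes an arterial connexin, and 3 fell, Bmp2 (−2.95), Bmp4 (−2.09) and Gja1 (−1.41). In Gata3+ HC (26.6% of all genes called) 6 of 11 rose, with Bmp4 (6.21), Cdh1 (4.92) and Dll1 (3.25) ahead and 1 lower, and without the 10 pools 3 of 9 rose, Bmp4 (5.79), Mycn (3.0) and Gja1 (1.1), and 1 was lower. Without the 12 libraries, Bmp4 (0.84) rose and Gja1 (−2.44) fell in Gata3+ MC, of 8 tested, and in Gata3+ SNS Dll1 (2.15) rose and Fgf10 (−3.92) and Bmp2 (−3.76) fell, of 9 tested. With the 12 libraries, 0 of 9 in Gata3+ MC and only Fgf10 (−3.18) of 10 in Gata3+ SNS passed edgeR's threshold.

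The mesenchymal lists bear on Tbx1, Tbx15 and Tbx18. In Gata3+ MC, where Tbx18 was not called and Tbx1 fell, 3 of 13 ureteric mesenchyme genes tested rose, Myocd (2.07), Acta2 (1.17) and Bmp4 (0.84), of which Myocd and Acta2 are smooth muscle genes, and 6 fell, led by Foxf1 (−7.28), Axin2 (−2.47) and Foxd1 (−2.16), with a list median of −1.13 beside 0.01 for all genes, of which 10.4% were called, without the 12 libraries. With them 1 rose, Myocd (2.10), and 3 fell, Foxf1 (−6.41), Foxd1 (−2.05) and Ptch1 (−1.70). In Gata3+ EC 2 of 8 ureteric genes rose, Acta2 (5.27) and Ptch1 (0.90), and Bmp4 fell. In Gata3+ HC 6 of 12 rose, led by Bmp4 (6.21), Acta2 (4.13) and Tcf21 (4.09), and 5 of 9 without the 10 pools. In Gata3+ SNS, without the 12 libraries, 3 of 12 fell, Tcf21 (−6.78), Acta2 (−2.99) and Foxd1 (−2.72). Of the limb and body wall genes, Msx2 (1.09) rose and Twist1 (−3.99), Fgf10 (−3.92) and Prrx1 (−2.0) fell in Gata3+ SNS, of 7 tested, and Alx4 (−3.24), Alx1 (−2.73) and Prrx1 (−0.38) fell in Gata3+ MC, of 7 tested, both without the 12 libraries (with them Fgf10, −3.18, alone passed in SNS and Alx4 and Alx1 in MC). In Gata3+ HC (26.6% of all genes called) 9 of 10 rose, led by Alx1 (6.08), Pitx1 (6.0) and Msx2 (5.20), with a list median of 4.35 beside 0.05. Without the 10 pools rich in mesenchymal markers 6 of 9 rose in Gata3+ HC, again led by Alx1 (5.51), Pitx1 (5.36) and Msx2 (4.62). In Gata3+ EC, Prrx1 (5.74), Twist1 (5.55) and Msx1 (1.89) rose, of 4 tested, and 6 of 6 mesenchymal markers tested were higher there too.

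Tbx3 shares 1.74% of its exonic bases with its antisense gene Tbx3os1, and the strand setting of the counting is not given in the sources used here. Tbx3os1 had medians of 21.99 CPM in Gata3+ SNS, 4.47 CPM in Gata3- SNS, 6.05 CPM in Gata3+ HC and 0.140 CPM in Gata3- HC, so that it was high in the populations in which Tbx3 was high. Among the 28 pairs of members, transcripts of 2 pairs shared runs of at least 31 identical bases, the longest 39 bases between Tbx15 and Tbx20.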

How the data were processed

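The deposited files held raw read counts per gene that the authors made with HTSeq, from reads of single 20-cell pools on mm10, and were used as deposited. The labels' tools are GSNAP and HTSeq 0.5.3p3, while the methods name STAR, so the aligner is uncertain. The strand setting is not given in the sources used here. A median of 16.31% of reads was ambiguous between genes. GENCODE M21 gave symbols for 45143 of 46078 gene IDs, and 92 ERCC spike-ins and 5 summary rows were kept out of library sizes.

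Pools were kept with over 500000 reads on genes and spike-ins, over 20% of reads on genes, under 20% mitochondrial and under 20% spike-in reads, which left all but 7 of 160. Genes with 10 or more counts in at least 5 pools were tested by edgeR 4.0.16 (quasi-likelihood, robust, TMM, R 4.3.3), with Benjamini-Hochberg adjustment over all genes tested. A gene was called at adjusted p under 0.01 and an absolute log2 fold change over 0.1. Alternatives used DESeq2 1.42.0, scran 1.30.0 and scanpy 1.11.5, other scalings, filters and thresholds. The tests were tried on simulated data. Correlations used log2(CPM + 1), 100000 permutations (scipy 1.17.1) and adjustment within each family, two-sided, and passed at adjusted p under 0.05. Those within populations were restricted to pools matching their label, which differs from the plan. The search for the genes most like each member used all passing pools, the 12 libraries included, and gave r only. The correlations with Gata3 and with marker sums and the SNS ratios were added after seeing the data, as were the fits without the 12 E11.5 libraries, without 1 EC pool, without 10 HC pools and without the highest pool of a rarely detected gene. Intervals cover the counting error of reads only and leave out the spread between pools. They treat amplified reads as independent, since the reads carry no molecular identifiers. The genes named were the 8 members, of each list at most 3 called genes with the largest rise and 3 with the largest fall, and the 3 genes most like each member. Some genes that this rule names are not reported here. Members and lists were chosen with earlier results of these data known. No 2 pools held identical counts.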

Additional observations from a re-analysis of the deposited data

Results flagged for a closer look

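The signed GFP+ minus GFP- difference on the log2 scale differed between cell types in 6 cases by edgeR's interaction test. For HC minus EC these were Tbx3 (4.98, adjusted p = 4.84e-07) and Tbx4 (4.32, adjusted p = 0.00415). Without the 10 Gata3+ HC pools richest in mesenchymal markers Tbx3 was at 4.14, and Tbx4 missed the count filter. For SNS minus MC, with all passing pools, they were Tbx1 (9.41, edgeR adjusted p = 8.86e-09), Tbx3 (2.70, adjusted p = 0.00999), Tbx15 (4.89, adjusted p = 0.00368) and Tbx20 (3.88, adjusted p = 8.00e-04). Without the 12 libraries that went against their label the values were 4.60 for Tbx1, 2.21 for Tbx3 and 5.54 for Tbx15, all called, and 1.46 for Tbx20, not called. For Tbx1 and Tbx15 the GFP difference lay in MC, and both were near 0 in the SNS pools that matched their label. Tbx4 missed the count filter without its highest Gata3+ HC pool, and Tbx15 held 10 or more counts in 4 Gata3- MC pools and 1 pool of each SNS population.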

How the results depend on the processing

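No paired analysis was possible because the table's columns carry population names and no replicate numbers. Scaling by ERCC spike-ins moved the median log2 fold change of all genes from 0.10 to −0.60 in EC, from 0.09 to 0.81 in Gata3+ HC against Gata3+ EC, from −0.01 to 0.67 in Gata3+ SNS against Gata3+ MC, to 0.35 in SNS, to 0.27 in Gata3- SNS against Gata3- MC, and to 0.75 and 0.37 in the HC and SNS interactions. The share of higher among called genes moved from 54.1% to 14.3% in EC, 57.1% to 85.6%, 51.1% to 88.6%, 52% to 83.3%, 55% to 81.8% and, for the HC interaction, 62.2% to 91%, in the SNS interaction 53.5% to 76.3%, and in MC 50.7% to 72.4%. Called genes numbered 698 in MC, against 381 with ERCC scaling, 1514 at adjusted p under 0.05, 1130 in 1 fit of all populations and 1585 without the 12 libraries, and 625 in SNS, against 1013, 1334 and 1631 with ERCC scaling, at 0.05 and without the 12. They fell from 4307 to 2216 in HC without the 10 pools, and rose from 4352 to 8585 in Gata3+ SNS against MC with ERCC scaling, from 1019 to 2230 at 0.05 and 3847 without the 12 in Gata3- SNS against MC, and from 1713 to 2961 at 0.05 in the SNS interaction. Members called, each with the share of all genes called under that setting, were 4 without a count filter (20.3%) and 3 in 1 fit of all populations (31.8%) in EC, 2 (2.76%) and 2 (5.63%) in MC, and 1 with the stricter filter of 20 pools in HC (27.1%). In SNS they were 1 without a filter (2.23%), 1 with the stricter filter (3.73%) and 0 by scanpy (2.95%). In Gata3+ HC against EC they were 3 with the stricter filter (47.3%), 3 by DESeq2 (43.3%) and 1 without the 10 pools (38.7%), in Gata3- HC against EC 2 with the stricter filter (42.4%), and in Gata3- SNS against MC 4 without the 12 (22.2%). In the HC interaction they were 4 with ERCC scaling (32.3%), 1 with the stricter filter (26.3%), 1 by DESeq2 (23.6%), 5 at 0.05 (33%) and 1 without the 10 (19.5%). Signs turned for Tbx3 in EC (−0.69 with ERCC scaling, −0.97 by scanpy), Tbx18 in HC (0.41 by scanpy), Tbx2, Tbx18 and Tbx20 in MC (0.18, 0.069 and 0.60 by scanpy) and, without the 12, Tbx2 (0.80) and Tbx20 (1.16), for Tbx1 in SNS (−1.57 by DESeq2), Tbx1 in Gata3+ SNS against MC (−2.78) and Tbx20 in Gata3- SNS against MC (1.70) without the 12, and Tbx18 in the SNS interaction (−0.35 with ERCC scaling, −0.029 without the 12). With a pseudocount of 0.1 the correlation of Tbx18 with Tbx20 turned to 0.0485 in Gata3+ MC and 0.0002 in Gata3- MC. Apart from the left-out libraries the cause was not tested. Genes under about 10 counts in most pools, Tbx4, Tbx5 and Tbx15, could not be compared at this depth in most populations.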
